A study of Mus musculus with 5 samples.

Results

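The genes described here make, pack, break down and sense GABA, the transmitter of the neurons that leave the striatum. They were chosen by name, with earlier results of these data known. Every probe whose platform symbol was Gad1, Gad2, Slc32a1, Abat, Aldh5a1, Gabbr1, Gabbr2 or Gphn was taken, whatever its values. This gave 9 of the 26423 probes on the array, for 8 of 17742 named genes; Gabbr1 had 2 probes and the other 7 genes had 1 each. RNA came from the striatum of 5 male FVB mice aged 12 months. All 5 carried a transgene that models Huntington's disease (HD): a human ubiquitin promoter drives GFP joined to the first exon of human HTT, and that exon holds 84 CAG repeats. The 2 mice called HD here carried that transgene alone. The 3 mice called HD_miR196a came from a cross of the HD line with miR-196a mice and also carried a miR-196a precursor behind a human ubiquitin promoter, which is not restricted to neurons. The labels describe motor function as weak in HD mice and improved in HD_miR196a mice. Mice without the HD transgene were not analysed here, and the sources used here do not say whether mice of a group were littermates.

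GABA is made from glutamate by a pair of decarboxylases, GAD67 (Gad1) and GAD65 (Gad2). The vesicular transporter VGAT (Slc32a1) loads it into synaptic vesicles, and GABA transaminase (Abat) and succinic semialdehyde dehydrogenase (Aldh5a1) degrade it in mitochondria. GABA-B receptors are G-protein-coupled heterodimers of GABBR1, which binds GABA, and GABBR2, which couples to the G protein. Gephyrin (Gphn) is the scaffold that holds GABA-A and glycine receptors at inhibitory synapses, and it also catalyses the last steps of molybdenum cofactor synthesis. Medium spiny projection neurons, which are GABAergic, are the most common neurons of the striatum, and they are lost early in Huntington's disease.

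The agent that distinguishes the groups is a microRNA, so its mature sequence is shown with the seed, bases 2 to 8, in capitals. In RefSeq (GRCm38.p6) the mouse genes Mir196a-1 (chr11:96265187-96265208, + strand) and Mir196a-2 (chr15:102973365-102973386, + strand) give the same mature miR-196a-5p. Of 1738 mature mouse entries, that seed occurs in miR-196a-5p and miR-196b-5p, which is shown because it would share seed-matched targets.
miR-196a-5p: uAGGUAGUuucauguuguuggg
miR-196b-5p: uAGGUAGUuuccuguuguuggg
The sources used here do not say which miR-196a precursor the transgene carries. The level of the microRNA and matches to its seed in the GABA transcripts were not analysed here.

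Levels below are log2 of quantile-normalized array intensity, and every difference is HD_miR196a minus HD on that scale. Deposited array medians were 160.0 to 166.3 in HD_miR196a mice and 184.3 to 185.6 in HD mice, a gap that quantile normalization removes. Background was gauged with 544 probes for olfactory receptors, genes with little expected transcription in this tissue: their median level was 4.99, and 95% of them lay under 8.31, called the olfactory limit here. Of 14 fixed projection neuron markers, 11 were measured and 10 were above that limit, among them the enkephalin precursor Penk (14.73 to 15.25) and the dopamine receptor Drd1 (12.69 to 13.11). The exception was Drd2, whose probe read 0.00 to 2.04. Levels of different probes are not ranked as amounts of RNA, because probes differ in how brightly they bind.

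None of the 9 probes passed an adjusted p under 0.05 in limma, where 0 of 26423 probes (0%) passed. At an unadjusted p under 0.05 the fit found 1 of the 9, the Gad1 probe, against 4.16% of the array. The 5 differences above 0 and 4 below it had a median of 0.03, and the median over all probes was -0.0023. The groups did not overlap at 2 of the 9 probes, Gad1 and the brighter Gabbr1 probe, both higher in HD_miR196a mice; 20.3% of all probes did not overlap in either direction 9.96% with HD_miR196a higher and 10.3% with it lower. The count of 2 in 9 is near that background. Apart from Gad1, the differences lay between -0.10 and 0.13, inside the range from the 5th to the 95th percentile of all probes (-0.41 to 0.42). An exact permutation test of 3 mice against 2 has 10 arrangements and cannot give a two-sided p below 0.1.

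**Figure D1:**
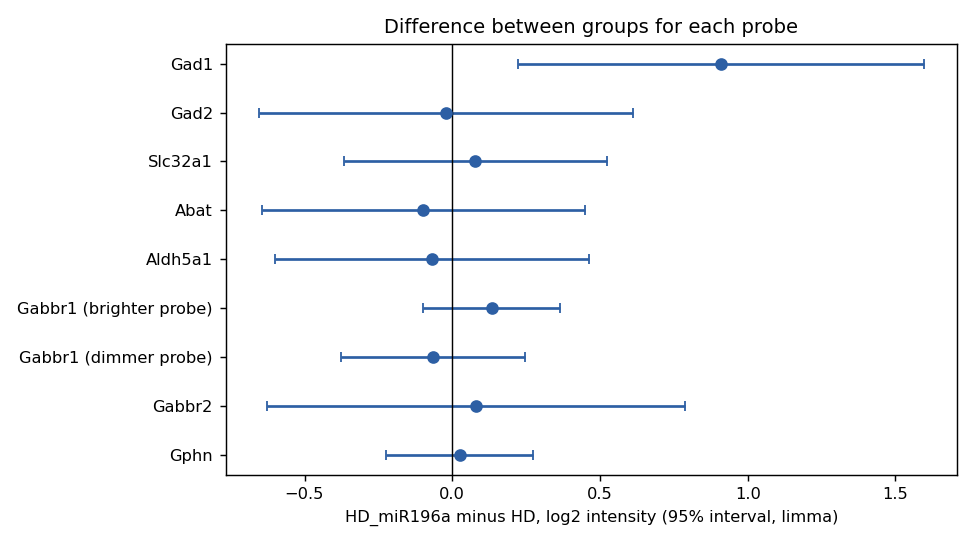
Difference between groups, HD_miR196a minus HD in log2 intensity, for each of the 9 probes, with limma's 95% interval. The Gad1 interval runs from 0.22 to 1.60 at a level below background, and the intervals of the other 8 probes include 0.

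Among the synthesis enzymes, the Gad2 probe gave a bright signal and the Gad1 probe did not. Gad2 measured 13.08, 12.59 and 12.89 in HD_miR196a mice 1 to 3, against 13.17 and 12.58 in HD mice 1 and 2. The HD mice were the highest and the lowest of the 5, so the groups overlapped completely. Their means were 12.85 ± 0.24 (SD, n = 3) and 12.88 ± 0.42 (SD, n = 2), a difference of -0.02 ± 0.24 (SE, limma adjusted p = 1). In linear terms the 95% interval runs from a level 36.5% lower to one 52.9% higher in HD_miR196a mice. These arrays are thus compatible with a moderate change of Gad2 in either direction. The direction turned with the mice included: the difference was 0.27 without HD mouse 1 and -0.32 without HD mouse 2.

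The Gad1 probe measured 3.35, 2.87 and 3.28 in HD_miR196a mice 1 to 3, against 2.59 and 1.92 in HD mice 1 and 2. Every HD_miR196a mouse was above both HD mice, with a difference of 0.91 ± 0.26 (SE, limma adjusted p = 0.979; exact permutation p = 0.1, the smallest possible). On the linear scale these values are 3.80 to 10.2 intensity units, and only 25.7% of olfactory receptor probes had a lower mean than this probe. With the floor raised to the olfactory receptor median of 31.7 units, all 5 mice sat at the floor and no difference was left to test. Gad1 is known to be strongly transcribed in striatal GABA neurons, and this probe read no level above background. Its link to Gad1 rests on the platform table alone and could not be checked, because no probe sequence was used here, so the probe may not target Gad1. The array therefore gives no usable level of Gad1 in either group.

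**Figure D2:**
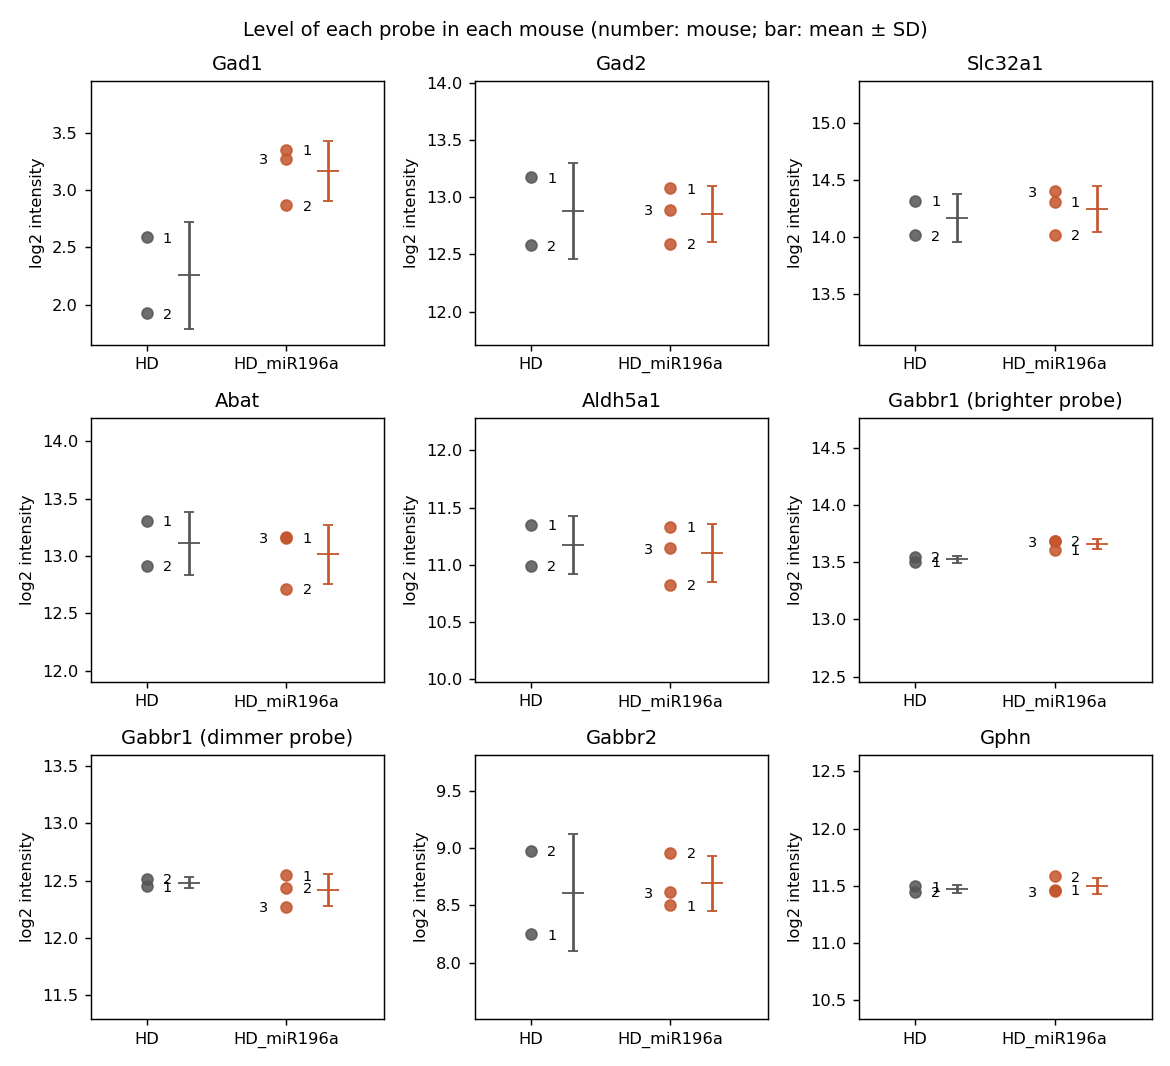
Log2 intensity of each of the 9 probes (1 panel each, all spanning the same log2 range) in the 2 HD and 3 HD_miR196a mice. Points are mice, numbered as in the labels, and bars beside them give the group mean ± SD; the groups are apart for Gad1 and the brighter Gabbr1 probe and overlap in the other 7 panels.

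VGAT, which fills vesicles with GABA and so marks inhibitory terminals, was bright in every mouse. Slc32a1 measured 14.31, 14.02 and 14.40 in HD_miR196a mice 1 to 3, against 14.32 and 14.02 in HD mice 1 and 2. The lowest mouse of each group was at nearly the same level, as was HD_miR196a mouse 1 beside HD mouse 1. The group means were 14.24 ± 0.20 (SD, n = 3) and 14.17 ± 0.21 (SD, n = 2), and the difference of 0.08 ± 0.17 (SE, limma adjusted p = 0.993) has a 95% interval from -0.37 to 0.52. It was 0.22 without HD mouse 1 and -0.074 without HD mouse 2.

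The breakdown enzymes gave values of the same kind. Abat, which takes the amino group off GABA, measured 13.17, 12.72 and 13.16 in HD_miR196a mice 1 to 3, against 13.31 and 12.92 in HD mice 1 and 2. Its highest mouse was an HD mouse and its lowest an HD_miR196a mouse, with the others between. The difference was -0.10 ± 0.21 (SE, limma adjusted p = 0.992), with a 95% interval from -0.65 to 0.45. Aldh5a1, the next enzyme of the path, measured 11.33, 10.83 and 11.15 in HD_miR196a mice 1 to 3, against 11.35 and 10.99 in HD mice 1 and 2. Here too HD mouse 1 was highest and HD_miR196a mouse 2 lowest. The Aldh5a1 difference was -0.07 ± 0.20 (SE, limma adjusted p = 0.994). Without HD mouse 1 the differences became 0.10 for Abat and 0.11 for Aldh5a1.

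Gad2, Slc32a1, Abat and Aldh5a1 varied between mice in a similar way that did not follow the groups. In all 4 probes HD_miR196a mouse 2 and HD mouse 2 were the lowest mice, so each group held 1 of them. The distance from the lowest to the highest mouse was 0.59 for Gad2, 0.39 for Slc32a1, 0.59 for Abat and 0.52 for Aldh5a1, several times the group differences. The SD within the 3 HD_miR196a mice was 0.20 to 0.26 for these probes, and its median over all probes was 0.16. Gabbr2 ran the other way, with HD mouse 2 and HD_miR196a mouse 2 highest and HD mouse 1 lowest. With 5 mice no correlation was computed, and the pattern is given as a description.

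The means of marker lists chosen for cortical neurons and for thalamus or pallidum differed between the same mice. Calb2 was on both the thalamus or pallidum list and the striatal interneuron list, and the lists do not establish where the RNA came from. The mean of 13 measured cortical neuron markers (14 were fixed) was 9.07, 10.81 and 10.47 in HD_miR196a mice 1 to 3, against 9.35 and 10.99 in HD mice 1 and 2. The mice with the lowest levels of the 4 probes above thus had the highest cortical marker means, although HD_miR196a mouse 3 was high on both. The mean of 9 measured thalamus or pallidum markers (10 were fixed) was 9.41, 8.97 and 9.33 in HD_miR196a mice, against 9.37 and 8.89 in HD mice. That mean was lowest in the same 2 mice as Gad2, but the markers did not all share this order. Calb2, Slc17a6, Tcf7l2, Zic1 and Lhx9 were each lowest in those 2 mice, while Rora, Prkcd, Ramp3 and Lef1 were not. Between the groups, 6 cortical markers were higher and 7 lower in HD_miR196a mice, 4 and 5 of the thalamus or pallidum list, and 5 and 5 of the 10 measured striatal interneuron markers. None of these markers passed the limma threshold, and none was at the floor in every mouse. The interneuron mean was 10.05 to 10.40 in HD_miR196a mice and 10.11 to 10.18 in HD mice. Single interneuron markers varied more, and in opposite ways. Cck measured 11.05, 13.64 and 13.01 in HD_miR196a mice 1 to 3, against 11.18 and 13.97 in HD mice 1 and 2. Lhx6 measured 10.86, 9.61 and 10.11 against 10.55 and 9.27, lowest in the same mice as Gad2. The projection neuron mean was 11.19 to 11.47 against 10.94 to 11.33, a difference of 0.22 between list means with 9 of 11 markers higher. This mean did not rank the mice as Gad2 did. It includes the Drd2 probe, far below the olfactory limit at 0.00 to 2.04. Drd2 read 0.00 in HD_miR196a mouse 3, the mouse of that group whose list mean fell within the HD range. The overlap of the list means and the order of the mice depend on that probe, so neither describes the rest of the list. The groups did not overlap for 5 of these 11 markers (Penk, Rgs9, Drd1, Ppp1r1b and Pde10a), each higher in HD_miR196a mice, beside 9.96% of the array in that direction. Of the glia, 4 of 10 astrocyte markers were higher and 6 lower, 10 of 10 oligodendrocyte markers were higher with a difference of 0.29 between list means, and microglia markers split 4 to 4. Groups did not overlap for 5 of 8 microglia markers, with Aif1 and Tmem119 higher and C1qa, C1qb and Trem2 lower in HD_miR196a mice. The same held for 3 of 10 astrocyte and 2 of 10 oligodendrocyte markers, beside 20.3% of the array in either direction. It held for 0 markers of the interneuron, cortical and thalamus or pallidum lists. The astrocyte mean was 12.26 to 12.46 in HD_miR196a mice and 11.11 and 12.32 in HD mice, the low value including a Slc1a3 probe at 0.00. In tissue RNA, fewer cells of a type and less RNA per cell cannot be told apart.

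With the cortical marker mean as a covariate, the Gad2 difference was -0.04 ± 0.12 (SE), against a SE of 0.24 without it. Under that covariate Slc32a1 differed by 0.07 ± 0.15, Abat by -0.11 ± 0.16, Aldh5a1 by -0.08 ± 0.12 and Gabbr2 by 0.10 ± 0.16. The covariate moved these 5 differences by at most 0.019, and the smallest limma adjusted p among the 9 probes was 0.827. The mean of the cortical markers was 10.11 in HD_miR196a and 10.17 in HD mice. With groups this close, the covariate had little room to move any difference. The SE did not fall for Gphn (0.0951 without the covariate and 0.0960 with it) or for the dimmer Gabbr1 probe (0.119 and 0.122), and fell for the others. Whether neighbouring tissue has a part in the variation between mice was not tested, because a covariate fit to 5 mice cannot decide it.

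**Figure D3:**
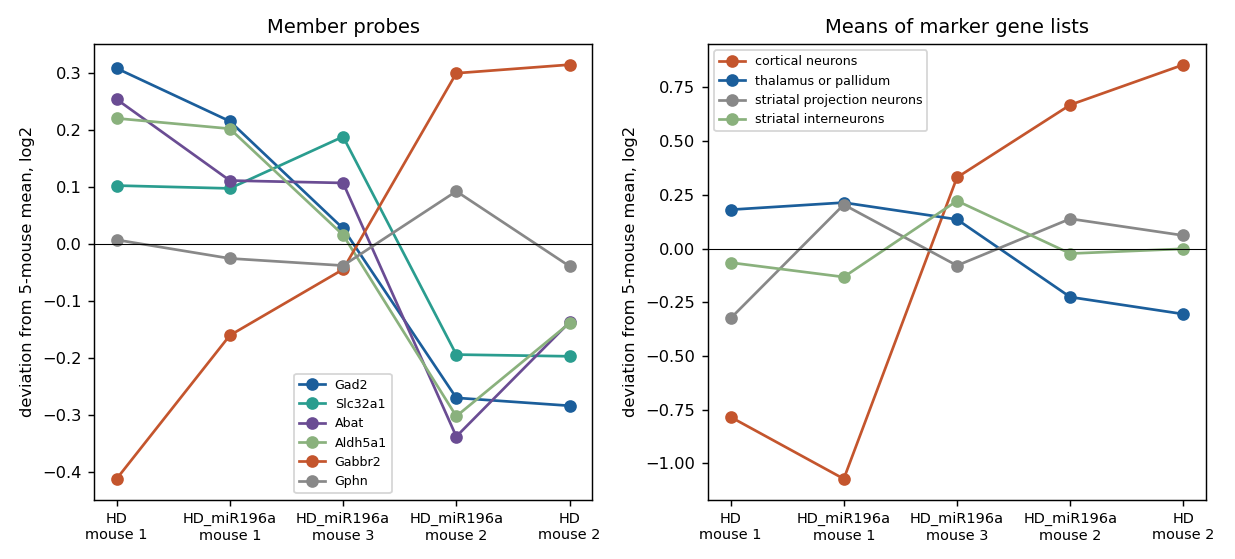
Deviation of each mouse from the mean of all 5 mice, in log2 units, for 6 member probes (left) and for the means of 4 marker gene lists (right, on a wider scale), with mice ordered by their Gad2 level and lines joining the values of 1 probe or list. Gad2, Slc32a1, Abat, Aldh5a1 and the thalamus or pallidum list were lowest in HD_miR196a mouse 2 and HD mouse 2, where Gabbr2 and the cortical list were highest.

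The start-site regions of these genes are shown because 3 of the probes that varied alike, Gad2, Slc32a1 and Aldh5a1, and Gabbr2, which ran opposite, have an entry in the RefSeq promoter table (GRCm38.p6). Each sequence is the 250 bases before the annotated start, 5′ to 3′ on the gene's strand, and capitals mark matches on either strand to the motifs searched.
Gad2, chr2:22622077-22622326, + strand: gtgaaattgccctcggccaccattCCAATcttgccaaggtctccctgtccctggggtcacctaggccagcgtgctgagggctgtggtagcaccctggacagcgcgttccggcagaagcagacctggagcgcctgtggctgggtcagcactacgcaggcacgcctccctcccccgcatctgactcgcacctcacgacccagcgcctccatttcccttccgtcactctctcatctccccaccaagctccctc
Slc32a1, chr2:158610508-158610757, + strand: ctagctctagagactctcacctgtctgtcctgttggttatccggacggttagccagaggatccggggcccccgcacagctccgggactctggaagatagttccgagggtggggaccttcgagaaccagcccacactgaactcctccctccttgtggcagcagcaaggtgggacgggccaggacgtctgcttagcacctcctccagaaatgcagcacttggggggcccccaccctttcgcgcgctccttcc
Aldh5a1, chr13:24937662-24937911, - strand: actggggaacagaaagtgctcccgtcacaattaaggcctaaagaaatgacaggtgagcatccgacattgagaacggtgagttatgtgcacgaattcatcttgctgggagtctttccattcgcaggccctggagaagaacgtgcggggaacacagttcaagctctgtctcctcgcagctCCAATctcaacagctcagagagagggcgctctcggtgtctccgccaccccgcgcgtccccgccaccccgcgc
Gabbr2, chr4:46991715-46991964, - strand: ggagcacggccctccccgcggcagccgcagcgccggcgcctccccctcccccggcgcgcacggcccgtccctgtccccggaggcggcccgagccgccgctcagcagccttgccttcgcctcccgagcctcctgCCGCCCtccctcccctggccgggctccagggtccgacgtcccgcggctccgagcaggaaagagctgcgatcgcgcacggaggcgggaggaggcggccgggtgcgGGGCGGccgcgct
The motifs were the TATA box (TATAAA), the GC box (GGGCGG), the CCAAT box (CCAAT), the cyclic AMP response element (TGACGTCA) and a homeodomain core (TAATTA). None of them overlaps another in the 4 windows shown. A CCAAT match lies in the Gad2 and Aldh5a1 windows, and 33.85% of 32851 windows of the same length hold one. The Gabbr2 window holds 2 GC boxes, which occur at least once in 32.74% of windows, and the Slc32a1 window has no match to any of the 5. GC content was 64.0% for Gad2, 62.4% for Slc32a1, 57.2% for Aldh5a1 and 80.8% for Gabbr2, against a median of 52.4% over all windows. Among the other members with an entry, the Gad1 window holds 1 TATA match and 1 GC box, the Gabbr1 window 2 GC boxes and the Gphn window 1, so 4 of the 7 members with an entry hold a GC box. TATA matches occur in 12.37% of windows. No member's window holds the cyclic AMP response element or the homeodomain core, which occur in 1.55% and 4.84% of windows. These matches describe letters and not binding.

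No probe of the GABA-B receptor subunits passed the limma threshold, and the 2 Gabbr1 probes differed in how they separated the groups. The brighter Gabbr1 probe measured 13.61, 13.69 and 13.68 in HD_miR196a mice 1 to 3, against 13.51 and 13.55 in HD mice 1 and 2. Each HD_miR196a mouse was above both HD mice, with means of 13.66 ± 0.04 (SD, n = 3) and 13.53 ± 0.03 (SD, n = 2). The difference of 0.13 ± 0.09 (SE, limma adjusted p = 0.979; exact permutation p = 0.1, the smallest possible) amounts to 9.71%, with a 95% interval from -6.56% to 28.8%. Without any scaling between arrays it was -0.10, where the median of all probes was -0.20, so relative to that median it was 0.10. With each mouse omitted in turn it was 0.11 to 0.16.

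The second, dimmer Gabbr1 probe did not show this. It measured 12.55, 12.44 and 12.27 in HD_miR196a mice 1 to 3, against 12.45 and 12.51 in HD mice 1 and 2, and the HD values lay inside the HD_miR196a range. Its difference was -0.07 ± 0.12 (SE, limma adjusted p = 0.988), and the mean of both probes differed by 0.03 ± 0.09. The difference in log2 level between the probes within a mouse, which shows only whether they changed unequally, was 1.06, 1.25 and 1.41 in HD_miR196a mice, against 1.06 and 1.03 in HD mice (exact permutation p = 0.2). Gabbr1 has isoforms with different first exons, and the sources used here do not say which transcript each probe binds.

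Gabbr2, the partner subunit, was read near background. Its probe measured 8.50, 8.96 and 8.62 in HD_miR196a mice 1 to 3, against 8.25 and 8.97 in HD mice 1 and 2, and HD mouse 1 lay below the olfactory limit of 8.31. The 2 HD mice again spanned the HD_miR196a mice. The means were 8.69 ± 0.24 (SD, n = 3) and 8.61 ± 0.51 (SD, n = 2), and the difference of 0.08 ± 0.27 (SE, limma adjusted p = 0.995) has the widest interval of the 9 probes, from -0.63 to 0.79. It was -0.28 without HD mouse 1 and 0.44 without HD mouse 2.

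Gephyrin, the scaffold of inhibitory synapses, spanned the smallest range of the 9 probes across mice. Gphn measured 11.46, 11.58 and 11.45 in HD_miR196a mice 1 to 3, against 11.50 and 11.45 in HD mice 1 and 2, a span of 0.13 over all 5. HD mouse 1 lay inside the HD_miR196a range and HD mouse 2 was level with its lower end. The difference was 0.03 ± 0.10 (SE, limma adjusted p = 0.995). Its 95% interval runs from a level 14.3% lower to one 20.9% higher, so larger changes lie outside the interval. The interval is not a detection limit, since no probe on the array passed the adjusted threshold.

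Related genes were read from 5 lists. In none of the lists did a probe pass the limma threshold. Of the 10 probes for GABA uptake and glutamine supply, 7 were higher and 3 lower in HD_miR196a mice, with a median of 0.10. Slc38a1, a neuronal glutamine transporter, had the smallest p through a dim probe that differed by -0.30 ± 0.10 (SE, limma adjusted p = 0.979), while its other probes differed by 0.10 ± 0.21 and 0.04 ± 0.21. Slc38a2, a related glutamine transporter, differed by -0.19 ± 0.14. Glul, the glutamine synthetase of astrocytes, differed by -0.08 ± 0.11 and the GABA transporter Slc6a11 by 0.16 ± 0.40 (both chosen after their values were seen).

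Enzymes of the GABA shunt and of vitamin B6, whose active form is the cofactor of the decarboxylases and of Abat, were higher at 8 of 14 probes and lower at 6, with a median of 0.0062. Aldh9a1, an aldehyde dehydrogenase of a side route to GABA, supplied the probes with the smallest p, and they disagreed. Its brighter probe measured 9.95, 9.51 and 9.49 in HD_miR196a mice, against 9.10 and 9.23 in HD mice, a difference of 0.48 ± 0.18 (SE, limma adjusted p = 0.979). Its dimmer probe, under the olfactory limit, differed by -0.20 ± 0.11. Each probe separated the groups, in opposite directions.

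Partners and effectors of GABA-B receptors, which include the KCTD subunits, inwardly rectifying potassium channels and inhibitory G proteins, were lower at 14 of 22 probes and higher at 8, with a median of -0.05. Gnai2 and Gnai3, alpha subunits of inhibitory G proteins, had the smallest p. Gnai2 measured 9.45, 9.37 and 9.38 in HD_miR196a mice, against 9.64 and 9.59 in HD mice, and the groups did not overlap (difference -0.21 ± 0.09 (SE), limma adjusted p = 0.979). Gnai3 differed by -0.28 ± 0.16 with overlapping groups. Of the 22 probes, 12 had means below the olfactory limit, beside 15949 of 26423 probes over the array. Of these 12, 1 was a Kcnj6 probe at 0.14 in HD_miR196a mouse 2 and 4.89 to 6.52 elsewhere. It gives the point at -1.61 in the plot of related genes.

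Gephyrin partners and molybdenum cofactor genes were higher at 5 of 12 probes and lower at 7, with a median of -0.09. Glra3, a glycine receptor subunit, differed by 0.33 ± 0.10 (SE, limma adjusted p = 0.979) and Mocs3, a molybdenum cofactor enzyme, by -0.28 ± 0.12, both at levels below the olfactory limit. Transcription regulators of GABA neurons were higher at 3 of 10 probes and lower at 7, with a median of -0.15. The homeobox genes Six3 and Dlx5 differed by -0.17 ± 0.09 and -0.16 ± 0.11, and a second Dlx5 probe by 0.06 ± 0.12. The Six3 probe and the second Dlx5 probe lay below the olfactory limit, as did 5 of the 10 probes of this list in all. Groups did not overlap at 1, 3, 1, 3 and 1 probes of the 5 lists in the order given, 9 of 68 in all, beside 20.3% of the array.

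**Figure D4:**
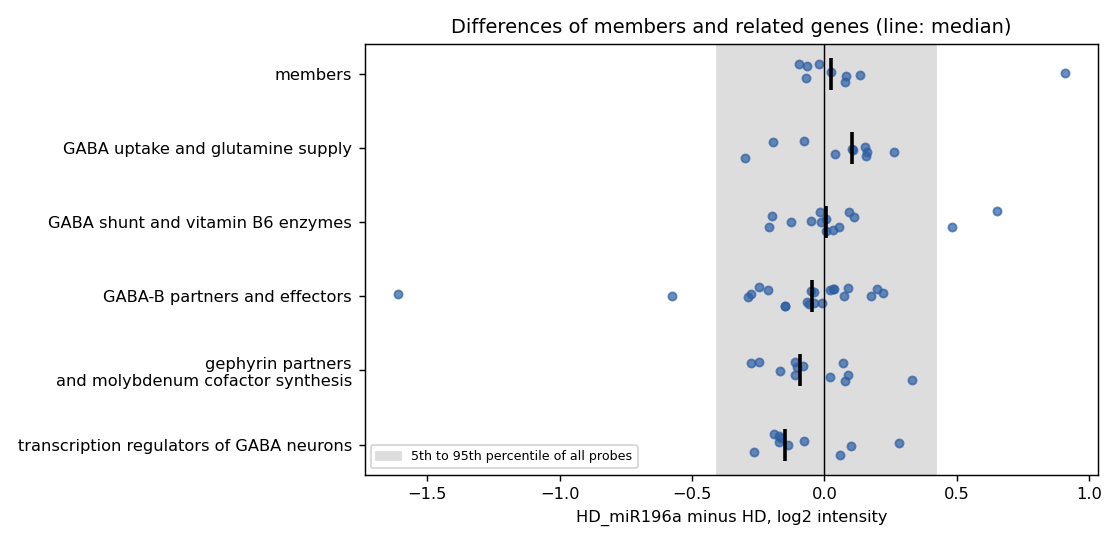
Differences, HD_miR196a minus HD in log2 intensity, of the 9 member probes and of the probes in 5 lists of related genes, with 1 point per probe (heights within a row are spread for visibility) and a black line at each median. The grey band is the 5th to 95th percentile of all probes (-0.41 to 0.42); medians lie between -0.15 and 0.10, and the member point at 0.91 is Gad1.

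Member probes were refitted under 15 other settings, or 12 for Gad1, and no value passed the adjusted threshold (smallest limma adjusted p = 0.362). The brighter Gabbr1 probe kept its direction in 14 of 15 and Gad1 in 12 of 12, whereas Slc32a1 and Gabbr2 each changed sign in 4 of 15 and Gad2, Abat, Aldh5a1 and Gphn in 3. The eBayes settings can change the error but not the difference, so no sign could turn there. The same holds for the raised floor and the filters on dim probes wherever a probe lay above them.

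**Figure D5:**
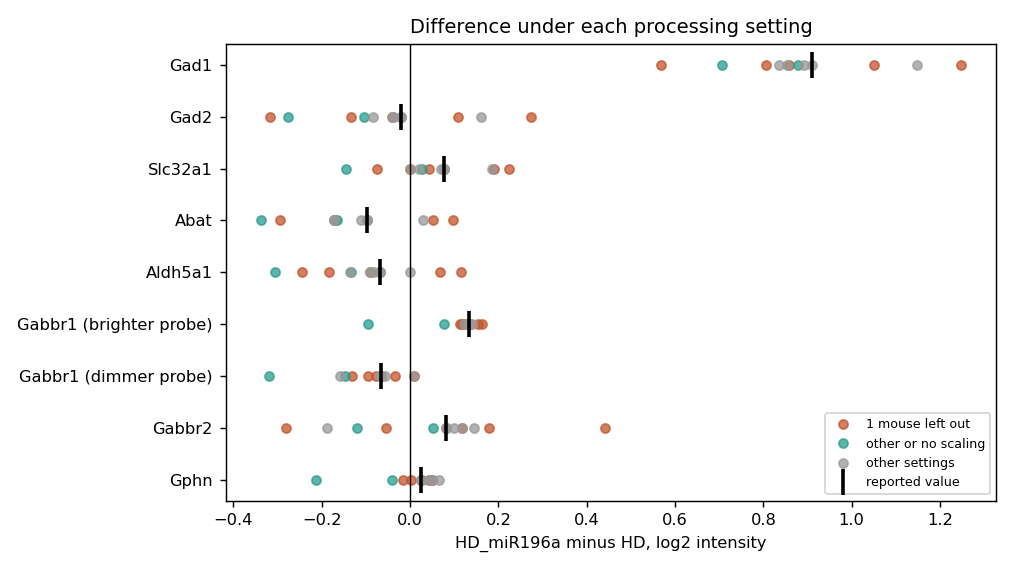
Difference of each member probe under the processing settings tried, in log2 intensity, with the reported value as a black mark. Values for Gad2, Slc32a1, Abat, Aldh5a1, the dimmer Gabbr1 probe, Gabbr2 and Gphn fall on both sides of 0 when 1 mouse is left out. Leaving all arrays unscaled moves each probe down.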

How the data were processed

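The deposited table holds linear intensities, 1 value per probe and mouse over 26423 probes. Amplified RNA was labelled with Cy5 per the labels, and the authors combined 2 technical repeats of each mouse, so the mouse is the replicate. Some values lie below 0, so background was already removed; the sources used here name neither scanner nor software nor scaling. Intensities were quantile-normalized, floored at 1 and log2-transformed here, and all probes were fitted together in limma 3.58.1 (R 4.3.3; lmFit, eBayes, group as the only term, two-sided, Benjamini-Hochberg adjusted p under 0.05). The fit was checked on simulated data. Symbols came from the platform table (20377 probes with 1 symbol, 6046 with none); 18213 matched RefSeq names (GRCm38.p6) directly, 2126 through a synonym and 38 not. All member probes were named, plus the 2 probes of each related list with the smallest p. Members and lists were chosen with earlier results of these data known. Precision is limited by 5 arrays. Alternatives were other scaling, floors, filters, eBayes settings, array weights, a mouse number block, a cortical covariate and left-out mice.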

Additional observations from a re-analysis of the deposited data

How the results depend on the processing

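Under the alternatives, 0 member probes passed the adjusted threshold (smallest limma adjusted p = 0.362), also with the mean of a gene's probes. Of 132 member values, 109 kept their direction and 23 changed sign without a call. For the 10 related probes that were refitted, the 2 with the smallest p of each list, 148 of 148 values kept their direction. These counts include the raised floor, the filters on dim probes and the eBayes settings, which could not change a sign. The array's count of 0 became 2 with the floor raised to the olfactory median, 1 among the brighter 75% of probes, 3 with eBayes trend and robust settings, and 0 to 3 with 1 mouse left out, where a single remaining HD mouse borrows the spread of the HD_miR196a mice. At an unadjusted p under 0.05, the 1099 probes became 3641 without scaling. With 1 mouse left out, differences ranged from -0.32 to 0.27 for Gad2, -0.074 to 0.22 for Slc32a1, -0.30 to 0.10 for Abat, -0.24 to 0.11 for Aldh5a1, -0.13 to 0.0088 for the dimmer Gabbr1 probe, -0.28 to 0.44 for Gabbr2 and -0.016 to 0.051 for Gphn. Without mouse 1 of each group Gad2 was 0.16, Abat 0.028, Aldh5a1 0.00014 and Gabbr2 -0.19. Without scaling, where the median of all probes was -0.20, Slc32a1 was -0.14, the brighter Gabbr1 probe -0.10, Gabbr2 -0.12 and Gphn -0.21; with median centring Gphn was -0.042. The cause was not tested beyond the shift of all probes. The Gad1 difference was 0.57 to 1.25 with 1 mouse left out and has no value under the raised floor or the filters on dim probes.

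The groups share mouse numbers 1 and 2, and across probes the deviations of same-numbered mice from their group means correlated at 0.236 and 0.17, but the labels do not say that a number pairs mice. The deviations of the 2 HD mice are exact opposites by construction, so these correlations are not 2 separate observations of pairing. With the replicate block, 0 probes passed and 2020 lay under an unadjusted p of 0.05; Slc32a1 differed by -0.0011 and the dimmer Gabbr1 probe by 0.0086. Signal near background limits Gad1, Gabbr2 and 26 of the 68 related probes. Those 26 had means below the olfactory limit, beside 15949 of 26423 probes over the array.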
